A study of Mus musculus with 8 samples.

Results

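The immediate early stress genes described here are Fos, Fosb, Jun, Junb, Jund, Egr1, Atf3, Ier2, Dusp1 and Zfp36. They were found by symbol among the probe sets annotated with exactly 1 gene. Each of the 10 genes had 1 such probe set, so the members are 10 of 21218 probe sets with 1 symbol. RNA was measured on 8 arrays of CD3+ T cells isolated from grafts of tissue derived from human embryonic stem cells, carried for 30 days by wild-type mice of the outbred CD1 stock. In 4 samples the host was untreated and rejected the graft. In the other 4 the host had been tolerised by injected antibodies against CD4, CD8 and CD40L, the last a surface protein by which helper T cells stimulate B cells and dendritic cells. Neither the number of mice behind a sample nor their age is given in the labels. Nothing in the labels says that the samples came from separate mice, so the p-values reflect the spread of these samples alone, and that spread may be technical. The grafts are human and the arrays carry mouse probes, and both groups share the graft, the stock and the day.

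Immediate early genes are transcribed within minutes of a signal, without new protein synthesis, and their mRNAs decay quickly. In T cells they are switched on through MAP kinases after engagement of the antigen receptor. They are also induced by handling stress such as the enzymatic release of cells from tissue. Fos and Jun proteins pair through leucine zippers as AP-1, a transcription factor at the promoters of Il2 and other cytokine genes. The members Dusp1 and Zfp36 restrain the response, the one by removing phosphate from MAP kinases and the other by promoting the decay of cytokine mRNAs.

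Values are log2 values, normalised and summarised per probe set by the authors with RMA, and differences are tolerant minus rejecting. A background line was drawn on each array at the 99th percentile of 1182 olfactory and vomeronasal receptor probe sets, whose genes serve smell and pheromone sensing. The lines lay between 0.99 and 1.35. The arrays formed 2 sets that cut across the groups. On the arrays numbered 3 and 4, 9.12% to 16.3% of genes lay above the line, against 2.52% to 5.57% on those numbered 1 and 2. Actb, which encodes beta-actin, read 6.54 to 7.82 on the former and 1.62 to 1.95 on the latter. Comparisons are therefore reported for the 8 arrays together and for the sets apart. Of the T cell markers, 7 of 10 measured lay above the line on at least 1 array, against 25.6% of all genes. Cd3e, a CD3 chain, did so on 5 of 8, while Cd3d, Cd247 and Cd28 did so on none.

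RefSeq promoter sequences of build GRCm38.p6 were matched for 8 of the 10 genes. The sequences below are the 250 bases before the annotated start of Jun, Dusp1 and Jund, with Fos beside them as the founding AP-1 gene. Jund, Jun and Dusp1 were the members above the background line on the most arrays. The window of Jun lies at chr4:95052223-95052472 (- strand) and that of Dusp1 at chr17:26508473-26508722 (- strand). The window of Fos lies at chr12:85473640-85473889 (+ strand) and that of Jund at chr8:70697489-70697738 (+ strand). Each window is printed in the direction of transcription, and capitals mark the letters of a searched motif.
Jun: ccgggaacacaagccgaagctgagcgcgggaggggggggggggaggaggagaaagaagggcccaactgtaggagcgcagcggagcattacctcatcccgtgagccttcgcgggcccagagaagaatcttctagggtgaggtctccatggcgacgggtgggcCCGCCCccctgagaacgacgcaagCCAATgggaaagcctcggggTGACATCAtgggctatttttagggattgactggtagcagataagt
Dusp1: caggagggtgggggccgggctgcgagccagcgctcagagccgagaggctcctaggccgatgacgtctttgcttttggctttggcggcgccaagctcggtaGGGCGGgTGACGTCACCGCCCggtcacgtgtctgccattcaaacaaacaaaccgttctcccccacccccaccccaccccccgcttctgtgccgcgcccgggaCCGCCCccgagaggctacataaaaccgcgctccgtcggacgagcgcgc
Fos: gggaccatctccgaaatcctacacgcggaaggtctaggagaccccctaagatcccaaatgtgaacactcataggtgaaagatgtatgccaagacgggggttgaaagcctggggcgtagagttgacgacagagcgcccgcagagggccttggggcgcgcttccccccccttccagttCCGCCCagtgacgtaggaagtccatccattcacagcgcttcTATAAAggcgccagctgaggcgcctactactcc
Jund: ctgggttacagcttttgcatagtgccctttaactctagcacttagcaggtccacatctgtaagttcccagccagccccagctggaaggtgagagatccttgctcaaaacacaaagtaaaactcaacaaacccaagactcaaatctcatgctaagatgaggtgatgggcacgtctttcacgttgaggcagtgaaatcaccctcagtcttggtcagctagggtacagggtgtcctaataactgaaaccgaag

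The motifs, read on both strands, were the cAMP response element and its Jun variant, TGACNTCA, the AP-1 site, TGACTCA, the GC box, written GGGCGG, the CCAAT box, the core promoter element TATAAA, the Egr site, GCGTGGGCG, and the CArG box bound by serum response factor. In Zfp36 the CArG box and a GC box share 1 base, and no other match of a motif overlapped that of another motif. Dusp1 held TGACGTCA from 143 to 136 bases before its start, and Jun held TGACATCA from 45 to 38 bases before. This motif was found in 2 of the 8 member windows and in 7.49% of all 32851 promoter windows of this length. Fos held TATAAA at 33 to 28 bases, a motif of 12.4% of windows. Zfp36, whose window is not printed, held the only CArG box of the 8 windows, CCATAAAAGG at 58 to 49 bases, a motif of 1.47% of windows. GGGCGG was present in 6 of 8 windows and in 32.7% of all. TGACTCA and GCGTGGGCG were in none of the 8, against 4.46% and 0.536% of all windows. The Jund window held none of these motifs. A match is a run of letters and not evidence of binding, and windows were cut at 1 annotated start per entry. Sites farther than 250 bases before a start were not searched, and Egr1 and Ier2 had no window. A motif missing here may therefore lie elsewhere at the gene.

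Most values of the members lay at background on these arrays. Of the 80 member values, 15 lay above the background line. On arrays 1 and 2, in that order, these were 0 and 2 of 10 members (rejecting) and 1 and 0 (tolerant). On arrays 3 and 4 they were 4 and 1 (rejecting) and 3 and 4 (tolerant). Of all genes, 2.52% to 5.57% lay above the line on arrays 1 and 2, and 9.12% to 16.3% on arrays 3 and 4. Jund lay above the line on 6 of 8 arrays, Jun and Dusp1 on 3 each, and Fos, Junb and Egr1 on 1 each. Fosb, Atf3, Ier2 and Zfp36 lay above it on none. Thus 6 of 10 members passed the line on at least 1 array, against a smaller share, 25.6%, of all genes. On at least 4 arrays 1 of 10 passed it, against 7.64% of genes. In such bulk samples, fewer cells that express a gene and less of its RNA per cell cannot be told apart. A value under the line is not proof that a gene was silent, and a difference between such values says little about expression. The line also decides the count. With a line exceeded by 5% of the receptor probe sets, 36 of the 80 values lay above it. With one exceeded by 0.1% of them, 4 did, 3 of Jund and 1 of Dusp1.

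**Figure D1:**
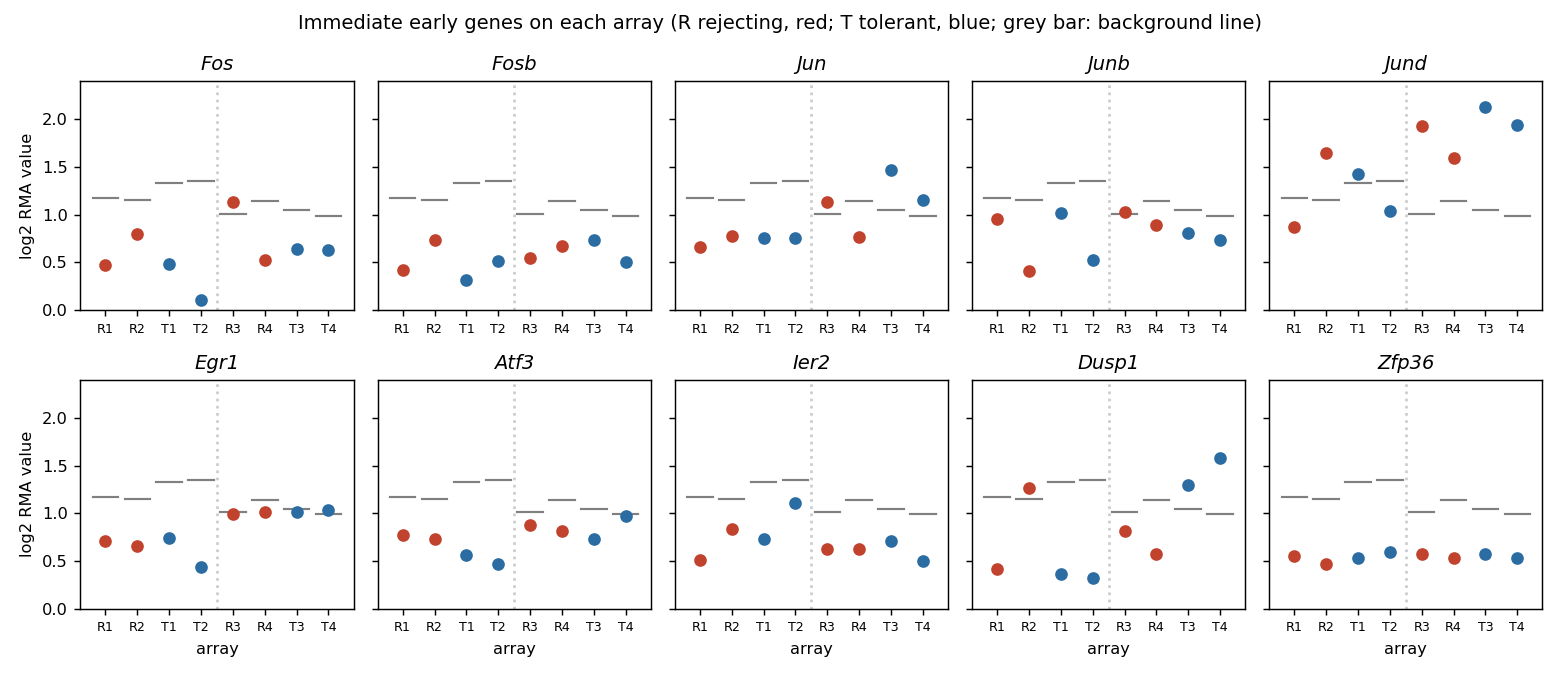
Log2 RMA value of each immediate early gene (vertical axis) on each of the 8 arrays (horizontal axis; R rejecting in red, T tolerant in blue), with arrays numbered 1 and 2 left of the dotted line and 3 and 4 right of it; grey bars are the background lines. Jund clears the line on all 4 arrays numbered 3 and 4, and Fosb, Atf3, Ier2 and Zfp36 clear it on none of the 8.

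Among the Jun genes, Jund was the member with the clearest signal, and it did not pass the test between the groups. Jund encodes the Jun protein that is present in resting cells as well as in stimulated ones. Jund (probe set 10572456) read 0.88, 1.64, 1.93 and 1.59 in rejecting samples 1 to 4, and 1.43, 1.04, 2.13 and 1.94 in tolerant samples 1 to 4. Only tolerant samples 3 and 4 lay above the highest receptor value of their array, at 2.13 against 1.87 and 1.94 against 1.82. No value of another member did so. The groups overlapped, and within both groups the samples numbered 3 lay highest and the lowest value came from a sample numbered 1 or 2. The means were 1.51 ± 0.45 (rejecting) and 1.63 ± 0.50 (tolerant; SD, n = 4 each). The difference of 0.12 had a standard error of 0.28 and a 95% confidence interval from -0.50 to 0.75 (limma adjusted p = 1). Without rejecting sample 1 it was -0.09.

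Jun itself, the partner of Fos in classical AP-1, lay near the line. Jun (10514466) read 0.66, 0.77, 1.13 and 0.76 in rejecting samples 1 to 4, and 0.75, 0.76, 1.47 and 1.15 in tolerant samples. Only rejecting sample 3 and tolerant samples 3 and 4 exceeded their lines. The difference was 0.20, with a standard error of 0.18 and an interval from -0.20 to 0.60 (limma adjusted p = 1). Without tolerant sample 3 it was 0.05. Junb, which is strongly induced by cytokines and receptor signals in T cells, had means of 0.82 ± 0.28 (rejecting) and 0.77 ± 0.20 (tolerant; SD, n = 4 each). Its difference was -0.05, with an interval from -0.40 to 0.31, and its range over the 8 arrays was 0.40 to 1.03.

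The Fos genes and Atf3 were low throughout. Fos (10397346) read 0.47, 0.79, 1.14 and 0.53 in rejecting samples 1 to 4, and 0.48, 0.10, 0.64 and 0.63 in tolerant samples. Rejecting sample 3 was the single value above its line, and the groups overlapped. The Fos difference over 8 arrays was -0.27, with a standard error of 0.17 and an interval from -0.66 to 0.12 (limma adjusted p = 1). It was -0.13 without rejecting sample 3 and -0.15 without tolerant sample 2. Fosb, the inducible paralog of Fos, averaged 0.60 ± 0.14 (rejecting) and 0.51 ± 0.17 (tolerant; SD, n = 4 each). Atf3, a stress-induced factor that pairs with Jun proteins, averaged 0.80 ± 0.07 and 0.68 ± 0.22 (SD, n = 4 each). Their differences were -0.08 and -0.11, within intervals from -0.34 to 0.18 and from -0.38 to 0.15.

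Egr1, a zinc finger transcription factor induced through serum response factor, differed by -0.04 between the groups. Egr1 (10454782) read 0.70, 0.66, 0.99 and 1.02 in rejecting samples 1 to 4, and 0.74, 0.44, 1.02 and 1.03 in tolerant samples. The groups overlapped almost completely, while the numbers 3 and 4 lay above the numbers 1 and 2 in both. The interval of the group difference ran from -0.38 to 0.31. Ier2, a nuclear protein of the early response, had means of 0.65 ± 0.13 (rejecting) and 0.76 ± 0.25 (tolerant; SD, n = 4 each). Its difference was 0.11, within an interval from -0.20 to 0.42.

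The genes that restrain the response differed from each other in how much they varied. Dusp1 (10449284) read 0.42, 1.26, 0.81 and 0.58 in rejecting samples 1 to 4, and 0.36, 0.32, 1.29 and 1.58 in tolerant samples. Both the lowest and the highest values were tolerant, so the groups overlapped fully. The difference was 0.12, with a standard error of 0.31 and an interval from -0.57 to 0.81 (limma adjusted p = 1). It was -0.01 without tolerant sample 3, -0.11 without tolerant sample 4 and -0.01 after quantile normalization. Zfp36 (10561453) lay between 0.47 and 0.59 on all 8 arrays, a range of 0.12. Its means were 0.53 ± 0.04 (rejecting) and 0.56 ± 0.03 (tolerant; SD, n = 4 each).

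Over the 8 arrays, limma called 0 of the 10 members at an adjusted p under 0.05, and 0 had an unadjusted p under 0.05. Of all 21218 probe sets it called 0, a background of 0%, and 2.89% had an unadjusted p under 0.05. The members' differences ran from -0.27 to 0.20 with a median of -0.01, and 5 of 10 were above 0, as were 50.1% of all probe sets. Over all genes the median was 0.00054. The groups separated without overlap for 0 members, against 1.09% (tolerant higher) and 1.13% (tolerant lower) of all probe sets. A difference as large as the ends of the intervals given above is not excluded by these data.

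**Figure D2:**
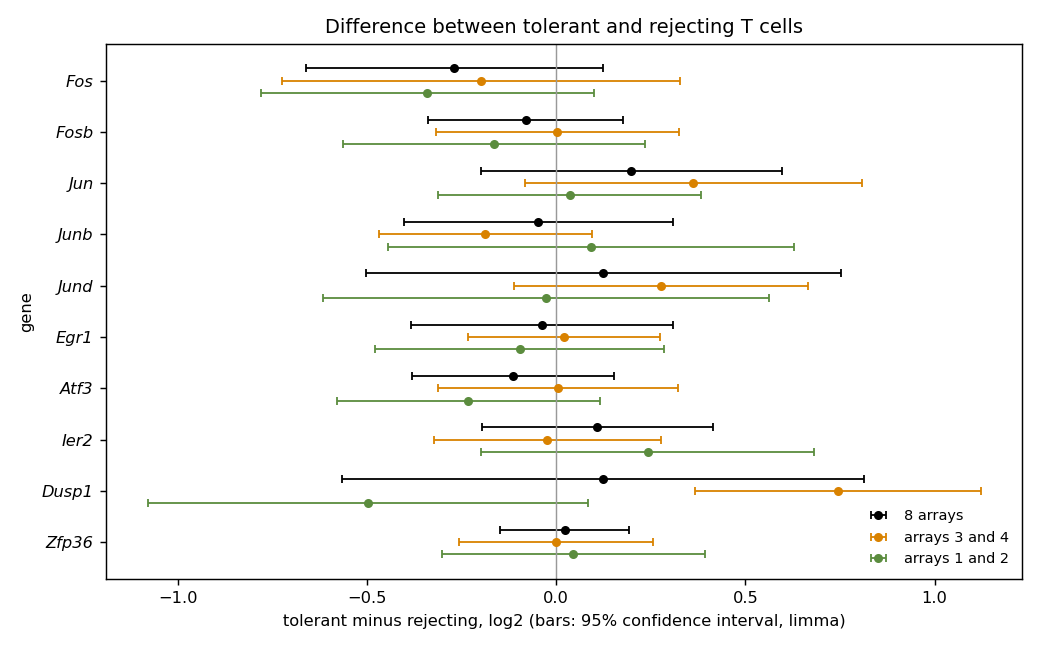
Tolerant minus rejecting difference in log2 value (horizontal axis) of each gene (vertical axis) over 8 arrays (black), arrays numbered 3 and 4 (orange) and arrays numbered 1 and 2 (green); points are estimates and bars are 95% confidence intervals from limma, not adjusted for the number of genes. The interval of Dusp1 on the arrays numbered 3 and 4, from 0.37 to 1.12, is the only one that leaves out 0.

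Where the signal was stronger, on arrays 3 and 4, Dusp1 stood highest among the members in its difference but did not pass. The 2 tolerant values of 1.29 and 1.58 lay above the line and the 2 rejecting values of 0.81 and 0.58 lay under it. The difference came to 0.74, SE 0.15 (limma unadjusted p = 0.00339, adjusted p = 0.313). The rejecting values were at background, so this size is approximate. Jun and Jund also had tolerant values above the rejecting ones, by 0.36 (limma adjusted p = 0.713) and 0.28 (limma adjusted p = 0.74). Their gaps were narrow, since the lower tolerant value exceeded the higher rejecting one at 1.15 against 1.13 for Jun and at 1.94 against 1.93 for Jund. For Junb the tolerant values of 0.81 and 0.74 were below the rejecting ones of 1.03 and 0.89, a difference of -0.19 (limma adjusted p = 0.763).

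The remaining members did not separate the groups on these arrays. Fos had a difference of -0.20, which was 0.11 without rejecting sample 3, and Fosb, Egr1, Atf3, Ier2 and Zfp36 had differences between -0.02 and 0.02. In all, limma called 0 of 10 members, against 0.0518% of all probe sets, and 1 member, Dusp1, had an unadjusted p under 0.05, against 7.21% of probe sets. Groups did not overlap for 3 members with tolerant higher and 1 with tolerant lower, against 19.3% and 20.0% of all probe sets. The members' median difference was 0.0037, with 6 of 10 above 0, against -0.0064 over all genes and 48.2% of probe sets above 0.

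The summed values of several marker lists were also higher on the tolerant arrays 3 and 4 than on the rejecting ones, and those of others were not. Values were summed on the linear scale and are given for array 3 and then array 4. The 15 macrophage markers came to 28.9 and 21.6 on the rejecting arrays and to 45.0 and 51.2 on the tolerant ones, the 11 fibroblast markers to 33.9 and 28.4 against 74.9 and 60.6, and the 11 kidney tubule markers to 19.9 and 20.6 against 141 and 61.6. On these arrays 11 of 15 macrophage, 11 of 11 fibroblast and 11 of 11 kidney tubule markers were higher on average in tolerant samples. Over all genes the share was 48.3%. Limma called 2 kidney tubule markers, Slc12a3 and Calb1 (adjusted p = 0.0359 and 0.044), against 0.0518% of all probe sets. It called 0 of the macrophage and fibroblast markers. Single genes carried much of the sums. Umod, the uromodulin gene of the kidney tubule, made up 97.4 and 24.2 of the tolerant kidney sums, which without it were 44.0 and 37.4 against 16.5 and 16.4. Without Dcn, a matrix proteoglycan, the fibroblast sums were 45.0 and 39.7 against 30.5 and 26.3, and without C1qb, a complement gene, the macrophage sums were 34.8 and 38.2 against 24.6 and 19.7.

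For the 10 measured T cell markers the sums were 20.8 and 24.1 (rejecting) against 25.3 and 37.8 (tolerant), and without Cd3e the groups overlapped, at 18.0 and 18.9 against 18.6 and 23.7. The 10 endothelial markers came to 16.5 and 15.3 against 19.8 and 17.6, and they too overlapped without their highest gene, Emcn. The 8 epithelial markers came to 14.9 and 16.1 against 19.3 and 16.8. Higher on average in tolerant samples were 8 of 10 T cell, 6 of 10 endothelial and 7 of 8 epithelial markers. The 7 neutrophil markers ran the other way, from 9.40 and 9.02 to 8.25 and 8.26, with 1 of 7 higher in tolerant samples. The 6 B cell markers overlapped, at 8.71 and 8.42 against 8.74 and 7.73, with 2 of 6 higher. Above the line on at least 1 of the 8 arrays were 8 of 15 macrophage, 6 of 11 fibroblast, 8 of 11 kidney tubule, 3 of 10 endothelial, 5 of 8 epithelial, 1 of 6 B cell and 0 of 7 neutrophil markers. The share over all genes was 25.6%. Among the macrophage markers, Cd68 was above the line on 2 arrays, Lyz2 on 3 and Csf1r on 1, while Adgre1 and Itgam were above it on none. Of the endothelial markers, Emcn was above it on 2 arrays, and Pecam1 and Cdh5 on none. The part of these cells in the Dusp1 values was not tested.

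The arrays numbered 1 and 2 gave no call, and several members had the opposite sign there. Dusp1, at 0.42 and 1.26 (rejecting) against 0.36 and 0.32 (tolerant), had a difference of -0.50, SE 0.25 (limma adjusted p = 0.936). Rejecting sample 2 alone was above its line, and without it the difference was -0.08, while without rejecting sample 1 it was -0.92. For Atf3 both tolerant values, 0.56 and 0.47, lay under the rejecting 0.77 and 0.73, a difference of -0.23 (limma adjusted p = 0.936). Fos had a difference of -0.34 and Ier2 one of 0.24, with overlapping groups for both. Limma called 0 of 10 members, against 0% of all probe sets, and 0 had an unadjusted p under 0.05, against 5.15%. The groups did not overlap for 0 members with tolerant higher and 2 with tolerant lower, against 17.2% and 17.1% of all probe sets. Of the differences 4 of 10 were above 0, against 49.4% of probe sets.

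Whether the group difference itself differed between the array sets was tested as an interaction. For Dusp1 the interaction, the difference on arrays 3 and 4 minus that on arrays 1 and 2, was 1.24, SE 0.35 (limma unadjusted p = 0.0059, adjusted p = 0.463). It fell to 0.82 without rejecting sample 2 and was 1.66 without rejecting sample 1. The other members had interactions from -0.28 for Junb to 0.33 for Jun. Limma called 0 of 10, with 1 at an unadjusted p under 0.05, against 0.0566% of all probe sets called and 7.13% at an unadjusted p under 0.05.

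Several members differed more between the array sets than between the groups. Because these sets were seen in the data, the following values are descriptive and carry no test. The mean on arrays 3 and 4 exceeded that on arrays 1 and 2 by 0.65 for Jund, 0.47 for Dusp1, 0.39 for Jun, 0.38 for Egr1, 0.27 for Fos and 0.22 for Atf3. Junb and Fosb were higher by 0.14 and 0.12, Zfp36 by 0.02, and for Ier2 the difference was -0.18. Most of the values behind these differences lay under the background line, which Egr1 and Fos passed on 1 array each and Atf3 on 0. Thus 9 of 10 were higher on arrays 3 and 4, against 53.2% of all probe sets. Their median was 0.25 against 0.01 over all genes. Egr1 was the single member whose sets did not overlap, with 0.99 to 1.03 on arrays 3 and 4 and 0.44 to 0.74 on arrays 1 and 2. Of these values only that of tolerant array 4, 1.03, lay above its line of 0.99. Of all probe sets, 10.1% lay higher on all of arrays 3 and 4. In the other direction, 0 members lay lower on all of arrays 3 and 4, against 5.99% of probe sets. The set difference of Jund exceeded that of 95.3% of probe sets and that of Dusp1 92.2%. The median over all genes stayed between 0.53 and 0.56, while the median of the members ran from 0.52 on tolerant array 2 to 0.94 on rejecting array 3.

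**Figure D3:**
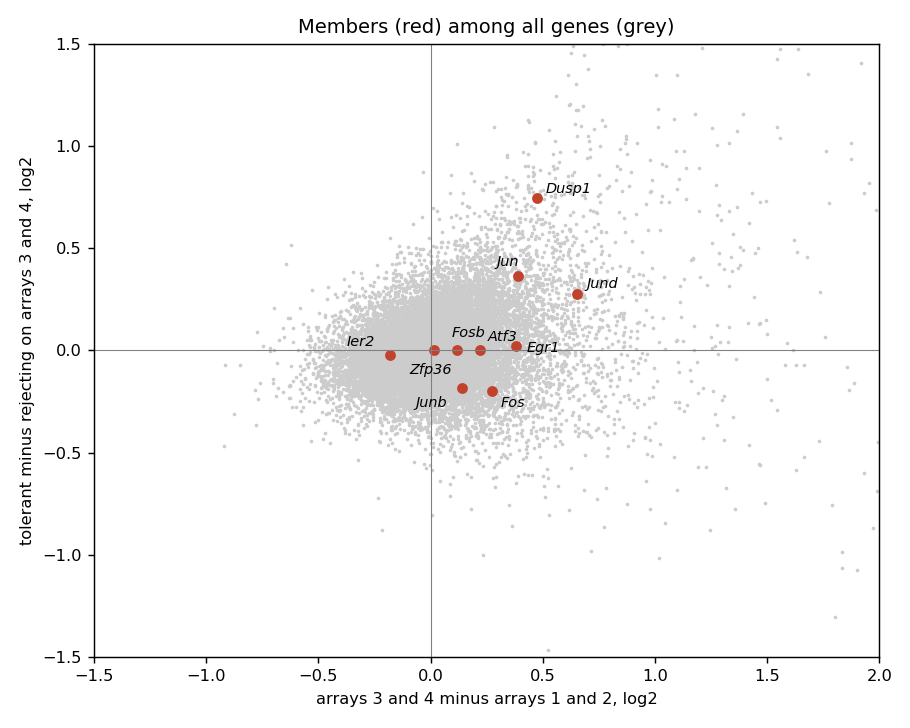
Each gene's mean on arrays 3 and 4 minus its mean on arrays 1 and 2 (horizontal axis, log2) against its tolerant minus rejecting difference on arrays 3 and 4 (vertical axis, log2), with the 10 immediate early genes in red among 18820 genes in grey, of which 96 lie outside the axes. Dusp1 sits at 0.47 and 0.74, Jund at 0.65 and 0.28, and Fosb, Egr1, Atf3, Ier2 and Zfp36 lie along the horizontal zero line, between -0.02 and 0.02.

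Ordered by the means of the 4 combinations of group and set, Jund was 2.04 (tolerant, arrays 3 and 4), 1.76 (rejecting, arrays 3 and 4), 1.26 (rejecting, arrays 1 and 2) and 1.23 (tolerant, arrays 1 and 2). The latter pair of neighbours, with values from 0.88 to 1.64, differed by far less than its spread. For Jun the order was 1.31 (tolerant, arrays 3 and 4), 0.95 (rejecting, arrays 3 and 4), 0.75 (tolerant, arrays 1 and 2) and 0.72 (rejecting, arrays 1 and 2). For Dusp1 it was 1.44 (tolerant, arrays 3 and 4), 0.84 (rejecting, arrays 1 and 2), 0.69 (rejecting, arrays 3 and 4) and 0.34 (tolerant, arrays 1 and 2), and the middle neighbours overlapped.

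The members did not share 1 profile over the arrays. Likeness was measured as the root mean square difference between profiles centred on their own means, over 8 arrays. By it the closest pair was Egr1 and Atf3 at 0.12. Jun was closest to Egr1 at 0.20 and Jund to Jun at 0.24, whereas Dusp1 was farthest from any other member, its nearest being Jund at 0.29. Fosb, Junb and Ier2 were nearest to the flat profile of Zfp36, at 0.15, 0.21 and 0.18. The mean profile of the members spanned 0.42. The other genes nearest to it were Snw1 at 0.033, Foxp4 at 0.035, Map11 at 0.045, Ezh1 at 0.051 and Man1c1 at 0.051, and these 5 genes had ranges of 0.36 to 0.47.

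The wider immediate early programme was measured by 41 other genes, of which limma called 0 over 8 arrays, on arrays 3 and 4 and on arrays 1 and 2. Of all probe sets, 0%, 0.0518% and 0% were called in these comparisons. With an unadjusted p under 0.05 there were 0, 4 and 2 of the 41, against 2.89%, 7.21% and 5.15% of all probe sets. The median difference of the 41 genes was 0.02 over 8 arrays, against 0.00054 over all genes. Of the 41, 23 were above 0, against 50.1% of probe sets. On arrays 3 and 4 the median was 0.11, against -0.0064 over all genes. There 28 of 41 were above 0, against 48.2% of probe sets. Klf4 and Gadd45b, a Krüppel-like factor and a stress sensor, had differences of -0.40 and -0.38 on arrays 3 and 4 (limma adjusted p = 0.547 and 0.593). Btg1, an antiproliferative gene of quiescent lymphocytes, had 0.36 (limma adjusted p = 0.624). The tolerant values of Klf4, 1.04 and 0.97, and of Gadd45b, 0.62 and 0.87, lay under their lines. Zfp36l2, named after its values were seen, had the largest difference of the 41 there, 1.01 (limma unadjusted p = 0.0348, adjusted p = 0.635). Its values were 1.85 and 0.88 (rejecting) against 2.07 and 2.68 (tolerant). Over 8 arrays the smallest unadjusted p-values belonged to Rgs2, Trib1 and Nr4a1, with differences of 0.22, 0.29 and 0.23 (limma adjusted p = 1 each). Nr4a1, a nuclear receptor used as a reporter of antigen receptor signals, lay above the line on 1 array, and the activation marker Cd69 on none.

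Of these 41 genes, 22 lay above the line on at least 1 array and 7 on at least 4, against 25.6% and 7.64% of all genes. On all 4 arrays numbered 3 and 4 it was 6 of 41, or 14.6%, against 6.52% of all genes. Those 6, named after their values were seen, were Egr3, Egr4, Klf2, Btg1, Gadd45a and Pim1. Klf2, a quiescence factor of naive T cells, read 1.77 to 2.04 on arrays 3 and 4 and 0.86 to 1.33 on arrays 1 and 2, without overlap. Egr4, at 1.65 to 1.85, and Pim1, at 1.33 to 2.33, lay above the line on all 8 arrays, and Egr3 and Gadd45a on 7 of 8. Egr4 did not follow the array sets, with means of 1.74 on arrays 3 and 4 and 1.76 on arrays 1 and 2. Its value lay under the highest receptor value of the same array except on tolerant array 4, at 1.85 against 1.82.

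**Figure D4:**
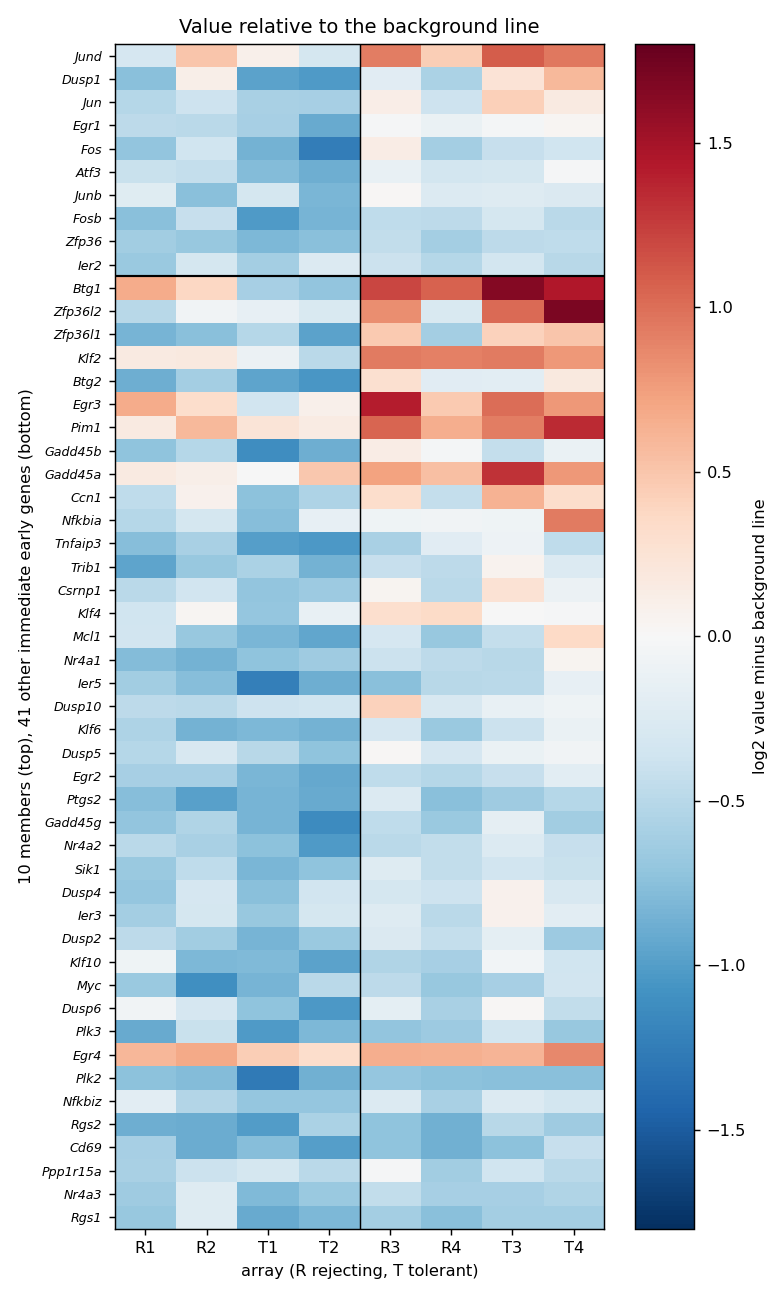
Log2 value minus the background line of the array (colour; red above the line, blue under it) for the 10 members, above the black rule, and the 41 other immediate early genes, under it, on each array (columns; R rejecting, T tolerant), each block sorted by the difference between array sets. Jund, Btg1, Klf2, Egr3, Egr4, Pim1 and Gadd45a are red on all 4 arrays numbered 3 and 4, and Pim1 and Egr4 are red on all 8.

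The partners and upstream kinases of AP-1 showed no call either. Of 12 measured AP-1 and related factors of 13 listed, limma called 0 in each comparison. Atf2, a partner of Jun proteins, had a difference of 0.34, SE 0.10, over 8 arrays (limma unadjusted p = 0.00905, adjusted p = 1), and it lay above the line on 0 arrays. Batf and Batf2 had differences of 0.10 and -0.15, and Creb1 one of -0.11. Fosl2 and Batf3, named after their values were seen, lay above the line on all 4 arrays numbered 3 and 4, with differences between the groups there of -0.07 and -0.10. Of 23 MAP kinase and serum response factor pathway genes, 15 had a probe set with 1 symbol and 0 were called. On at least 1 array 4 of the 15 lay above the line, against 25.6% of all genes. The JNK genes Mapk8 and Mapk9 had differences of 0.26 and 0.16 over 8 arrays and Map2k2 one of -0.24. On arrays 3 and 4, Map2k1 and Mapkapk2 had -0.17 and 0.16.

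Of 11 measured cytokine and surface genes that AP-1 is known to regulate, 0 were called in any comparison. Above the line on any array lay 2 of the 11, Csf2 and Ifng, against 25.6% of all genes. On arrays 3 and 4, 2 of the 11 were higher on average in tolerant samples, against 48.3% of all genes. Over 8 arrays 6 of the 11 were higher, against 50.2% of all genes. Il3, Il4 and Csf2 had differences of -0.13, -0.13 and -0.19 over 8 arrays, and Tnf and Fasl had -0.17 and 0.20 on arrays 3 and 4 (limma adjusted p = 0.772 and 0.74). Of 9 heat shock genes listed, 7 were measured and 0 were called. Hspd1, Dnajb1 and Hspe1 had differences of 0.32, -0.15 and -0.12 over 8 arrays. Hspb1 had 0.18 on arrays 3 and 4. Hspa8, a constitutive chaperone, read 2.10 and 4.33 (rejecting) against 3.77 and 3.82 (tolerant) on arrays 3 and 4, and 0.42 to 0.92 on arrays 1 and 2. The groups overlapped and the sets did not.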

How the data were processed

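The authors' deposited table holds log2 values for 35556 probe sets on 8 arrays. The submitters' processing notes name Expression Console and RMA, and neither a version nor a build was found in them. Base 2 was taken because maxima near 12.6 would exceed the scanner's range on other bases. The platform annotation gave 1 symbol to 21218 probe sets, several to 1881 and none to 12457. The former stood for 18820 genes, each represented by the probe set with the highest mean.

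Groups were compared with limma 3.58.1 (R 4.3.3), lmFit and eBayes without filter, 2-sided, with Benjamini-Hochberg adjustment over 21218 probe sets and a threshold of 0.05. The scripts were tested on simulated data. The members, the gene lists and the split by array number were chosen with earlier results of these data known. Named were all members, up to 3 genes per related list with the smallest unadjusted p over 8 arrays and on arrays 3 and 4, and the 5 genes closest to the members' mean profile. Deviations from group means of same-numbered arrays correlated by 0.499, 0.507, 0.410 and 0.599, but equally within an array set (0.497, 0.483, 0.411 and 0.581), so the pairing comes from the data and follows the sets. The number of arrays limits the precision. Alternatives were other normalizations, moderation, blocks, weights, filters and leaving out each array. Plots used Python 3.11.15 and matplotlib 3.10.9.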

Additional observations from a re-analysis of the deposited data

How the results depend on the processing

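In all 59 fits, main and alternative, 0 members were called, and the lowest adjusted p of a member in any alternative was 0.192. The filter on dim probe sets removed members above the line on too few arrays, so those members could not be called there. Over 8 arrays it kept 1 member, Jund. Of 516 member differences under the alternatives, 39 changed sign, each between uncalled values. The counts over all probe sets moved more. On arrays 3 and 4 the 11 calls became 17 with quantile normalization again, 26 with trend and robust moderation, 81 with the spread from 1 fit of all 8 arrays, 5 with the filter on dim probe sets and 0 with all probe sets tested together. Leaving out 1 array gave 0 to 48, with 0 without tolerant sample 3 or 4 and 48 without rejecting sample 4. The interaction's 12 calls became 0 with quantile normalization, 1 with the filter and 0 with all probe sets, and 0 to 76 when 1 array was left out. On arrays 1 and 2 leaving out 1 array gave 0 to 2. Within a set, leaving out 1 array leaves a lone sample in a group, which is then assumed to vary like the other group. Those counts rest on the spread of that group alone. The replicate block gave 0, 8 and 0 calls over 8 arrays, arrays 3 and 4 and arrays 1 and 2, and it changed no member's call. The members' median difference ran from -0.188 to 0.0242 on arrays 1 and 2 and from 0.00599 to 0.274 for the interaction when 1 array was left out. Background lines exceeded by 5% and 0.1% of the receptor probe sets, chosen after seeing the data, put 36 and 4 of 80 member values above background in place of 15. Averaging probe sets by gene gave no separate value, since each member had 1. The causes of the other shifts were not tested. Low signal on arrays 1 and 2 limits every comparison that uses them.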

Other observations

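Btg1, an antiproliferative gene of resting lymphocytes, had the smallest interaction p among the 41 other immediate early genes and was singled out after its values were seen. On arrays 1 and 2 its values were 1.84 and 1.53 (rejecting) against 0.74 and 0.64 (tolerant). On arrays 3 and 4 they were 2.21 and 2.20 (rejecting) against 2.69 and 2.44 (tolerant). The groups thus did not overlap in either set and lay in opposite order. The interaction was 1.35, SE 0.21 (limma adjusted p = 0.0885) and did not pass. Both tolerant values on arrays 1 and 2 lay under their background lines of 1.33 and 1.35.

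Hsp90aa1, an inducible chaperone also singled out after its values were seen, read 2.00 on rejecting array 4 and between 0.46 and 1.05 on the other 7 arrays.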
